A study of Mus musculus with 12 samples.

Results

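The genes described here encode products of the exocrine pancreas, measured in RNA of the adult mouse hypothalamus. They are 9 named genes: Ctrb1, Cpa1, Cpb1, Zg16, Cel, Clps, Pnlip, Cela2a and Cela3b. They were chosen by name because earlier results of these arrays had shown genes of this kind to be high in aspartame-exposed mice, so the difference between those mice and controls is given as a description, without a test. Of the 9, 8 had a probe set named for that gene alone that passed the filter on low signals, out of 17186 genes tested in all. Pnlip, the pancreatic triglyceride lipase, was not analysed here because the platform annotation used names no probe set for it.

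The acinar cells of the pancreas make digestive enzymes, pack them into zymogen granules and release them into the gut. Proteases are stored as inactive precursors (zymogens) and are cut into active form in the intestine, whereas lipases act with colipase and bile salts. A transcription factor complex around Ptf1a and Rbpjl, together with Bhlha15 and Nr5a2, drives these genes in acinar cells. The hypothalamus is not known as a site of digestive enzyme production.

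All mice were C57BL/6J males of 21 weeks. Control mice (CON) received neither agent. ASP mice received aspartame, a sweetener made of aspartic acid and phenylalanine, in utero through the mother and then in drinking water for life, at 46 mg/kg body weight. CGP mice were exposed to CGP 39551, which blocks the NMDA receptor for glutamate (NMDAR) by competing with it, at 5 mg/kg body weight given to the mothers from conception until weaning. ASP+CGP mice had both. The tissue was dissected between cuts at the optic chiasm in front and the mammillary bodies behind. RNA from the mice of each group was mixed into 1 pool, which was run on 3 Affymetrix Mouse Gene ST arrays. The 12 arrays therefore hold 4 pools, and a p-value here measures the spread between arrays of a pool and not between mice. A treatment effect and any other difference between pools cannot be told apart.

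Signals are log2 RMA values, a background-corrected and quantile-normalized scale on which 1 unit is a doubling. The array number limits the precision. Median signals lay between 8.28 and 8.34 on the 12 arrays, and the correlation r between arrays of the same pool was 0.992 to 0.997. Array 3 of CON and array 3 of ASP+CGP deviated most from their pool mean: the SD over genes was 0.0903 and 0.0996, while the other 10 arrays had 0.049 to 0.0701. Hypothalamic marker genes were high in all pools. Hcrt, the orexin precursor, ranged from 12.46 to 12.68 and Pmch, the precursor of melanin-concentrating hormone, from 11.73 to 12.22 over the 12 arrays. The pools were not alike in them, since the means of both were highest in CON, at 12.65 and 12.06. Over the 21 measured hypothalamic genes the median relative to CON was -0.15 in ASP, -0.19 in CGP and -0.19 in ASP+CGP. Agrp was not analysed here.

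To show what the genes have in common in sequence, the 250 bases before the transcription start were read from the RefSeq promoter table (GRCm38.p6), which held 6 of the 8 measured genes (Ctrb1, Cpa1, Cpb1, Cel, Cela2a and Cela3b). The window was searched on both strands for the bipartite site of the Ptf1a complex, taken as an E-box (CANNTG) followed on the same strand, after 2 to 16 bases, by TTTCCC. The pair was found in 2 of the 6 promoters, those of Ctrb1 and Cel, and in 1.43% of all 32851 promoters of the table. CANNTG alone stood in 6 of 6 (66.2% of all promoters), TTTCCC alone in 4 of 6 (21.9%), the NR5A-type element CAAGGTCA in 1 of 6, that of Cel (1.33%), and the exact letters TATAAA in 0 of 6 (12.4%). Promoters of 19 other measured exocrine pancreas genes were also in the table. Of these 19, 1 had the pair, 14 had CANNTG, 4 had TTTCCC, 0 had CAAGGTCA and 7 had TATAAA. Each such match is a description of letters and not a binding site. The promoters are printed 5′ to 3′ on the strand of the gene. Those of Ctrb1 and Cel stand at the ends of the range of ASP values given next and both carry the pair, and that of Cpa1 lies between them and lacks it. Capitals mark the E-box and the TTTCCC box of the pair, written as GGGAAA where it lies on the opposite strand.
Ctrb1, chr8:111691011-111691260, minus strand, pair at positions -205 to -190 from the start: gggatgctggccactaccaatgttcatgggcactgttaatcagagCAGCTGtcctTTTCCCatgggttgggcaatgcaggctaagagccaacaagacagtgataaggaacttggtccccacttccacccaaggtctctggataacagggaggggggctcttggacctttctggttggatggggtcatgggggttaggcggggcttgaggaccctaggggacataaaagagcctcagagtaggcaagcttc
Cel, chr2:28563404-28563653, minus strand, pair at positions -86 to -60: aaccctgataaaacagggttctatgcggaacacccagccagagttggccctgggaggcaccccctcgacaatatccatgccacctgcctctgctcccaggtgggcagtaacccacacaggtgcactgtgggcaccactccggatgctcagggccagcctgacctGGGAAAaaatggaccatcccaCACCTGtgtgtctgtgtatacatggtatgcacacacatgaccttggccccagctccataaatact
Cpa1, chr6:30638968-30639217, plus strand, no pair: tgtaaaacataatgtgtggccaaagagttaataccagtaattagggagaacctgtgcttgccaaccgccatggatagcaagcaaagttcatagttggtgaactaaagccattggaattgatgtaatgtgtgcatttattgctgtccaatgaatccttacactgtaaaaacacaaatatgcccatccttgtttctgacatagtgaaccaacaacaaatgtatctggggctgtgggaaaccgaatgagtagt

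Each of the 8 measured genes stood higher on all 3 ASP arrays than on any of the other 9 arrays. This is the pattern the genes were picked for, and nothing is read from it. Over all genes, 4.37% had their ASP arrays above the other 9 arrays, and 9.93% had them all above the CON arrays. The median difference of ASP minus CON over the 8 genes was 1.91 on the log2 scale, with a range of 1.07 to 3.21, beside a median of -0.01 over all genes. In a bulk sample, more cells of a type and more RNA per cell cannot be told apart.

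**Figure D1:**
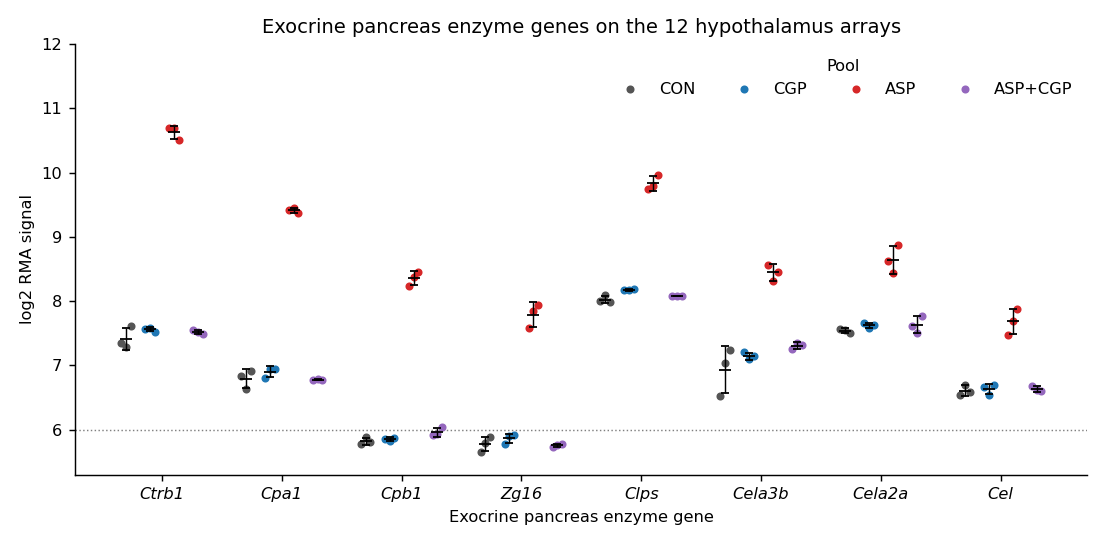
Log2 RMA signal (y axis) of the 8 measured exocrine pancreas genes (x axis, ordered by ASP minus CON) on each array of the CON, CGP, ASP and ASP+CGP pools; points are arrays, bars give mean ± SD of 3 arrays and the dotted line marks a signal of 6. Ctrb1 averaged 10.63 in ASP and 7.42 in CON, and the CON, CGP and ASP+CGP arrays of each gene lie together below the ASP arrays.

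Among the serine protease zymogens, Ctrb1, which encodes chymotrypsinogen B, gave signals of 7.35, 7.29 and 7.61 in CON, 7.57, 7.59 and 7.53 in CGP, 10.69, 10.69 and 10.51 in ASP and 7.56, 7.52 and 7.48 in ASP+CGP. The ASP arrays stood 2.90 above the highest other array. Mean signals were 10.63 ± 0.10 for ASP and 7.42 ± 0.17 for CON (SD, n = 3), a 9.28-fold difference and the thirteenth largest of all genes. Cela3b, a pancreatic elastase-family protease, had the widest spread in controls. Its signals were 6.53, 7.04 and 7.24 in CON, 7.20, 7.10 and 7.14 in CGP, 8.57, 8.32 and 8.45 in ASP and 7.25, 7.36 and 7.31 in ASP+CGP. The ASP mean was 2.85-fold above the CON mean, and the first CON array lay well under the other arrays of its pool. Cela2a, the elastase 2 precursor, gave 7.57, 7.55 and 7.50 in CON, 7.65, 7.58 and 7.63 in CGP, 8.63, 8.43 and 8.87 in ASP and 7.62, 7.51 and 7.77 in ASP+CGP. Its ASP mean of 8.64 ± 0.22 was 2.15-fold above CON.

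The metallocarboxypeptidases trim amino acids from the carboxyl end of peptides. Cpa1, carboxypeptidase A1, gave 6.84, 6.63 and 6.91 in CON, 6.81, 6.95 and 6.95 in CGP, 9.42, 9.45 and 9.37 in ASP and 6.77, 6.79 and 6.78 in ASP+CGP. With an SD of 0.04 in ASP it was the most even of the 8 genes there, at 6.14-fold above CON. Cpb1, carboxypeptidase B1, gave 5.78, 5.88 and 5.81 in CON, 5.86, 5.83 and 5.88 in CGP, 8.24, 8.38 and 8.46 in ASP and 5.91, 5.93 and 6.04 in ASP+CGP. The ASP mean was 5.80-fold above CON, and 8 of its 12 arrays lay under a signal of 6, where the background forms much of the value. Since 1 array outside ASP reached 6, it passed the filter on low signals only with its ASP arrays. Taken against a signal of 6, the ASP level was 5.14-fold higher.

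Of the genes of fat digestion, Clps encodes colipase, the cofactor of pancreatic lipase. It gave 8.01, 8.09 and 7.98 in CON, 8.18, 8.17 and 8.19 in CGP, 9.74, 9.79 and 9.96 in ASP and 8.08, 8.08 and 8.08 in ASP+CGP, so the ASP mean was 3.50-fold above CON. Cel, the bile salt-activated carboxyl ester lipase, showed the smallest difference. Its signals were 6.54, 6.70 and 6.59 in CON, 6.67, 6.54 and 6.70 in CGP, 7.48, 7.69 and 7.88 in ASP and 6.68, 6.62 and 6.60 in ASP+CGP. The ASP mean was 2.11-fold above CON, and the gap between the lowest ASP array and the highest other array was 0.78. Zg16, a lectin of the zymogen granule membrane and not an enzyme, gave 5.66, 5.79 and 5.89 in CON, 5.78, 5.90 and 5.92 in CGP, 7.58, 7.85 and 7.95 in ASP and 5.73, 5.76 and 5.78 in ASP+CGP. It too passed the filter only with its ASP arrays, since the 9 other arrays lay under 6, and the ASP mean was 4.03-fold above CON, or 3.46-fold above a signal of 6.

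The 3 ASP arrays carried the genes in different order. Cpb1, Zg16, Cel, Clps and Cela2a were highest on the third ASP array, on which Ctrb1 and Cpa1 were lowest. Cela3b and Ctrb1 were highest on the first. The range over the ASP arrays ran from 0.08 for Cpa1 to 0.44 for Cela2a, and the arrays repeat 1 pool. The ASP pool also stood above CGP and ASP+CGP. For Ctrb1 the ASP mean was 8.39-fold above CGP and 8.64-fold above ASP+CGP, and for Cel 2.07-fold above both. For Cela3b, 2.85-fold above CON, it was 2.46-fold above CGP and 2.20-fold above ASP+CGP. These comparisons share the ASP arrays and are given without a test.

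The comparisons that leave out the ASP arrays asked whether the genes differed after NMDAR antagonism alone, after the combined treatment, or with aspartame on the antagonist background. None of the 8 was differentially expressed in any of them by limma at an adjusted p under 0.05 and a fold change over 1.4, nor when the spread was not moderated. Cpb1 and Zg16 passed the filter on low signals only with their ASP arrays. Outside ASP their signals lay near or under 6, where a fall could hardly show, so their results in these comparisons say little. Over all genes, 0.111% were called in CGP vs CON, 0.18% in ASP+CGP vs CON and 0.163% in ASP+CGP vs CGP. At an unadjusted p under 0.05, 1, 2 and 0 of the 8 passed in the same order, beside 11.6%, 15.4% and 14.2% of all genes.

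In CGP vs CON the 8 differences ran from 0.02 to 0.21 on the log2 scale, with a median of 0.10 beside 0.01 over all genes, and each was above 0. Clps, at 0.15 ± 0.05 (SE), had the lowest adjusted p (0.278), and its CGP arrays were all above its CON arrays, as were those of Cela2a (0.08 ± 0.09). That made 2 of 8 genes, beside 12% of all genes. The 95% intervals of the 8 genes lay between -0.15 and 0.49, the upper limit being that of Cela3b. Without single CON arrays the value of Cela3b ran from 0.01 to 0.36 and did not pass.

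In ASP+CGP vs CON the differences ran from -0.02 for Zg16 to 0.37 for Cela3b, with a median of 0.07. Cela3b (0.37 ± 0.13, unadjusted p = 0.0122 and adjusted p = 0.181 in limma) and Cpb1 (0.14 ± 0.06, adjusted p = 0.272) were the 2 genes whose ASP+CGP arrays were all above their CON arrays, a pattern shown by 7.15% of all genes. Cpb1 entered the fit only with its ASP arrays, and its signals in these pools lay near the background. The value of Cela3b rests on its uneven CON arrays. Without the third CON array it was 0.52 and passed the test (adjusted p = 0.0314 in limma). Over the alternatives tried it ran from 0.17 to 0.52, with adjusted p-values of 0.0314 to 0.463. The other 7 genes did not pass under any alternative. The upper limits of the 95% intervals reached 0.65, a 1.57-fold rise, for Cela3b.

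ASP+CGP vs CGP compares aspartame with no aspartame in mice that had both received the antagonist. It holds no CON or ASP array, but the values of all pools were known when the genes were chosen, so it is not independent of the choice. Here 4 of 8 genes lay above 0 and 4 below, with a median of -0.02, the same as that of all genes at this precision (-0.02). The largest differences were 0.16 ± 0.13 for Cela3b and -0.12 ± 0.06 for Cpa1 (adjusted p = 0.601 and 0.416 in limma). Cpa1 and Clps were higher on all CGP arrays than on any ASP+CGP array, beside 14.8% of all genes, and Cpb1 and Cela3b were higher on all ASP+CGP arrays, beside 7.7%. The 95% intervals of the 8 genes lay between -0.28 and 0.44, the upper limit being a 1.35-fold rise. The smallest ASP minus CON difference of the 8 was 1.07, but the genes were chosen for that difference. Whether it differed from ASP+CGP minus CGP was not tested.

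**Figure D2:**
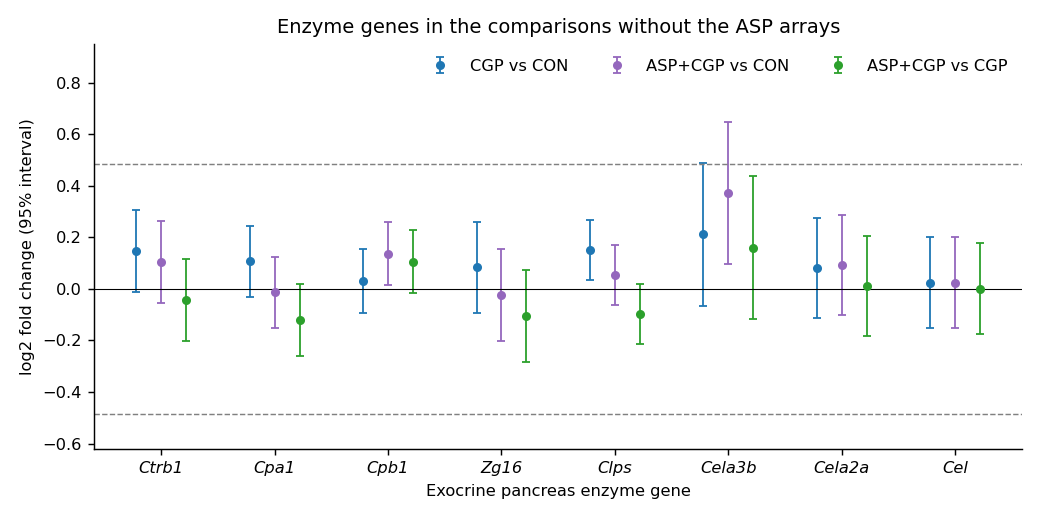
Log2 fold change (y axis) with its 95% interval from the limma fit for the 8 exocrine pancreas genes (x axis) in CGP vs CON, ASP+CGP vs CON and ASP+CGP vs CGP; dashed lines mark a 1.4-fold change. All 24 points lie inside the dashed lines, and the interval that reaches highest, 0.65, is that of Cela3b in ASP+CGP vs CON.

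Other genes of the exocrine pancreas were taken from a list made by role. Of 42 listed, 27 were measured, and 11 were upregulated in ASP vs CON while none was downregulated, beside 1.02% of all genes upregulated and 0.0291% downregulated. The median of the 27 was 0.29. Of the 11, Pnliprp1 and Try10 reached a signal of 6 on 0 and 1 arrays outside ASP and passed the filter only with their ASP arrays, so that their calls are no support for a difference, and without any 1 of the ASP arrays the count was 9. In ASP vs ASP+CGP 9 of 27 were higher, beside 1.24% of all genes, and these 2 comparisons share the ASP arrays. Pnliprp1 is among these 9, and its call is no support for a difference here either. None was called in CGP vs CON, ASP+CGP vs CON or ASP+CGP vs CGP by limma, where 5, 4 and 2 of the 27 (18.5%, 14.8% and 7.41%) had an unadjusted p under 0.05, beside the 11.6%, 15.4% and 14.2% of all genes.

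Digestive precursors made up most of the 11. In the serine protease group 6 of 7 rose. Among the 6 is Try10, which passed the filter only with its ASP arrays (0.65, or 0.19 against a signal of 6). 2210010C04Rik, a gene of the trypsinogen family, rose by 2.04 ± 0.11 on the log2 scale, from 5.90 in CON to 7.94 in ASP, while CGP and ASP+CGP stood at 6.06 and 5.91. Of its arrays outside ASP 4 reached 6, and against a signal of 6 the ASP level was 1.94 higher. Prss2, anionic trypsinogen (0.92 ± 0.06), Ctrl, a chymotrypsin-like protease (0.89 ± 0.06), and Try5, a trypsinogen (0.88 ± 0.13), followed. Trypsinogen genes are near-identical copies, so their probe sets may share signal. Ctrc, the gene of chymotrypsin C, did not pass, at 0.03 ± 0.07 (adjusted p = 0.877 in limma).

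Sycn, the granule protein syncollin, rose by 1.41 ± 0.07, from 7.77 to 9.19, and Reg1, a secreted acinar lectin, by 0.89 ± 0.08. In all 3 of the 6 granule and secretory genes rose. Among the lipases 1 of 3 rose, Pnliprp1, a relative of pancreatic lipase (1.03 ± 0.09). Its arrays outside ASP all lay under 6, and against a signal of 6 the ASP level was 0.64 higher. Pnliprp2 and the phospholipase gene Pla2g1b, which were not called, had 0.28 ± 0.09 and 0.29 ± 0.07. Rnase1, pancreatic ribonuclease, rose by 0.86 ± 0.06. Amy1, the amylase gene expressed in salivary gland and liver, had -0.08 ± 0.05 (adjusted p = 0.416).

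None of the 5 acinar transcription factor genes passed in ASP vs CON, with a median of -0.04. Ptf1a had -0.04 ± 0.08, Rbpjl 0.04 ± 0.07, Bhlha15 0.12 ± 0.08, Nr5a2 -0.09 ± 0.05 and Gata4, a factor shared with other organs, -0.04 ± 0.05, with adjusted p-values of 0.427 to 0.853. The signal of Ptf1a was 6.28 in CON and 6.23 in ASP, close to the floor of 6. Nr5a2, Bhlha15 and Rbpjl were weak too, with CON means of 6.51, 6.74 and 6.99, and Gata4 had 7.78. The median CON signal of all genes was 8.59. Signals near background understate fold changes, which limits what these values can show. None of the 4 receptor and channel genes passed the fold threshold either. Sctr, the secretin receptor, had 0.35 ± 0.06 with an adjusted p of 0.00169 in limma. Cckar, the cholecystokinin receptor, had -0.11 ± 0.06, and the water channel genes Aqp8 and Aqp12 had 0.01 ± 0.07 and 0.04 ± 0.06.

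**Figure D3:**
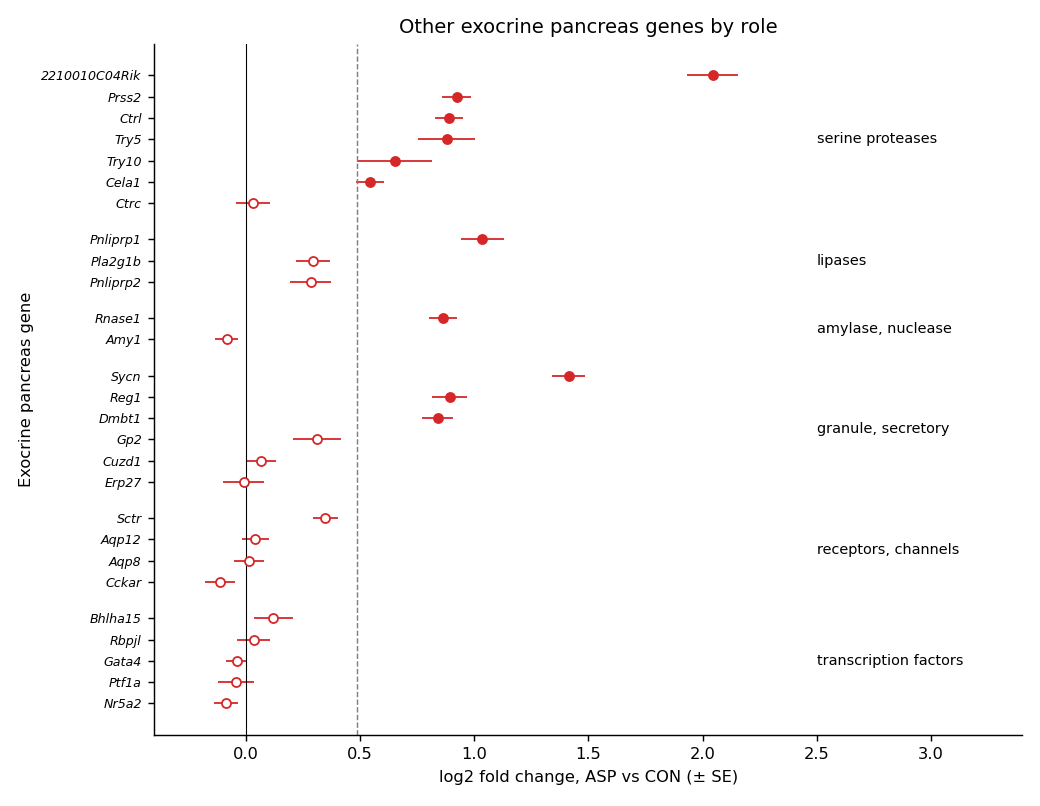
Log2 fold change in ASP vs CON (x axis, ± SE of the limma fit) of the 27 other exocrine pancreas genes measured (y axis), grouped by role; filled points are upregulated at an adjusted p under 0.05 and a fold change over 1.4, and the dashed line marks 1.4-fold. Filled points lie among proteases, lipases, ribonuclease and granule genes, up to 2.04 for 2210010C04Rik, and the 5 transcription factors lie near 0. Try10 and Pnliprp1, the filled lipase gene, passed the filter on low signals only with their ASP arrays.

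Markers of the other pancreatic cells stayed under the call threshold. None of 8 islet genes was called (median 0.00), with Ins2, an insulin gene, at 6.84 in CON and 6.88 in ASP and Gcg, the glucagon gene, at 6.75 and 6.68. None of 7 duct genes was called (median 0.06), and Krt19 stood at 6.30 and 6.39. The summed signal of the islet list ranged from 10.36 to 10.44 over the CON arrays and from 10.41 to 10.45 over the ASP arrays on the log2 scale, and that of the duct list from 12.32 to 12.47 and from 12.38 to 12.43. The duct sum includes genes with strong signals, such as Sox9 (10.11 in CON and 10.17 in ASP), so a rise of weaker genes would hardly move it. Krt19, Gcg and Ins2 were weak, with CON means above those of 5.7%, 12.8% and 14.5% of all genes. Of other organs that secrete into the gut, no measured gene of the salivary (4) or stomach (10) lists was called, and Dpep1, a membrane dipeptidase also made outside the gut (1.26), was the called gene among 8 intestinal ones. Over all genes, 1.02% were upregulated.

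Genes of tissues outside the pancreas were also high in the ASP pool. The counts below stand beside 1.02% of all genes upregulated in ASP vs CON and 0.0291% downregulated. Hsd3b1 of the adrenal cortex list and Fabp4 of the white adipose list had mean signals of 5.01 and 5.56 in CON, 5.16 and 5.43 in CGP and 5.14 and 5.56 in ASP+CGP. Calls of genes that pass the filter only with their ASP arrays are no support for a difference, and such genes were not counted apart in these lists. Of 12 measured adrenal cortex genes 11 were upregulated (median 2.94), and the summed signal ranged from 10.86 to 10.92 over CON arrays and from 14.36 to 14.39 over ASP arrays. Of 14 white adipose genes 12 were upregulated (median 2.19, summed signal 11.19 to 11.25 in CON and 13.24 to 13.28 in ASP), as were 4 of 7 brown adipose, 5 of 11 adrenal medulla and 4 of 9 lymphoid genes. The 4 lymphoid genes were Cd74, H2-Aa, H2-Ab1 and H2-Eb1, all of MHC class II antigen presentation, and no other gene of that list was called. Of 11 pituitary genes 7 were upregulated in ASP, but that list differed between the other pools too, with a median relative to CON of 0.81 in ASP, 0.63 in CGP and -0.82 in ASP+CGP. Of 11 liver genes 2 were upregulated, and of 21 hypothalamic genes 2 were upregulated (1 of them Pomc, which the pituitary list also holds) and 1, Avp (the vasopressin gene), was downregulated (-0.50). No kidney (5), skeletal muscle (11) or blood (2) gene was called, nor was any of the 10 neuronal genes, whose median was -0.01. The part that these other tissues' RNA plays in the values of the digestive enzyme genes was not tested.

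**Figure D4:**
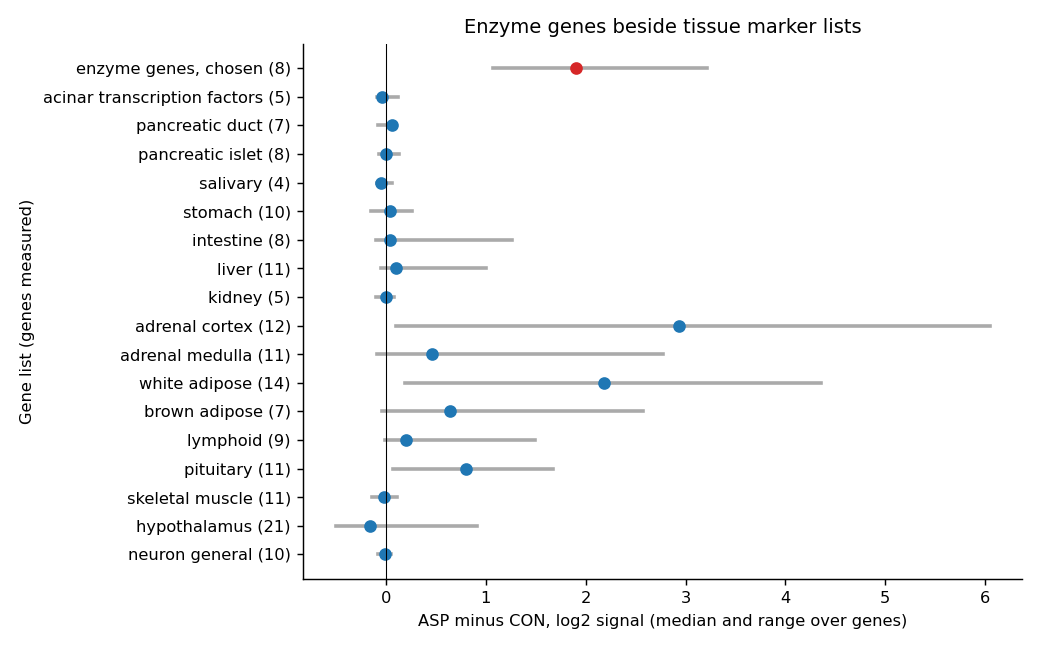
ASP minus CON on the log2 scale (x axis) for the 8 exocrine pancreas genes and for marker lists of acinar transcription factors, other pancreatic cells, other organs and brain (y axis, genes measured in brackets); points are medians and lines the range over genes. The enzyme genes, chosen for this difference, have a median of 1.91, the islet list one of 0.00 and the adrenal cortex list one of 2.94.

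The genes outside all lists whose 12 array values followed the mean profile of the 8 genes most closely were Mgarp, a mitochondrial protein gene (Pearson r = 0.996), Me1, malic enzyme 1 (0.995), and Ly6d, a surface protein gene (0.994). Mgarp averaged 8.58 in ASP but 5.23 in CON, 5.26 in CGP and 5.17 in ASP+CGP, where the background forms much of the value. The highest correlations mark any gene that is high in ASP and even elsewhere, and 36 genes reached 0.99, among them 5 of the 8. Each of the 8 is part of the mean profile it was compared with, which raises its own correlation. By distance between the 4 pool means, each taken relative to CON, the nearest were Abcb1b, a drug efflux transporter gene (distance 0.225 log2 units), Agtr1a, an angiotensin receptor gene (0.312), and Prss35, a serine protease gene (0.361). Agtr1a, Prss35 and Agpat2 were the 3 genes among the 10 closest by both measures. The correlations rest on 12 arrays of 4 pools and are a description.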

How the data were processed

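The deposited values are log2 signals, 1 for each of 29149 probe sets and 12 arrays, which the authors made in Partek by RMA (background correction, log2 of perfect match probes, quantile normalization and median polish). Quantile normalization removes a change common to most genes, and signals near background understate fold changes. The methods state that values below log 6 were filtered out, although the deposited table holds lower values. Groups and replicate numbers came from the sample labels, and no column was left unused.

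Of the probe sets, 19019 had 1 symbol in the platform annotation. Those reaching a signal of 6 on 3 or more arrays were tested, and the probe set with the highest mean stood for its gene. Contrasts were fitted with limma 3.58.1 in R 4.3.3 over all 17186 genes and 12 arrays, with Benjamini-Hochberg adjustment within a contrast and a fold change over 1.4. Values after ± are SEs for fold changes and SDs for signals. An exact permutation test of 3 arrays against 3 cannot go below 0.1, so none was made. The steps were tested on simulated data.

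The enzyme genes, the lists and the tests were chosen with earlier results of these data known. Genes named outside the 9 are the 8 exocrine genes with the largest called rise, all listed transcription factors, receptors and channels, the genes closest in profile and up to 4 per tissue list. Ctrc, Amy1, Pnliprp2, Pla2g1b and the islet, duct and hypothalamic markers were named after their values were seen. Same-numbered CON and ASP+CGP arrays deviated together from their pool means (r = 0.170, 0.256 and 0.541 over genes), so these numbers were treated as pairs in an alternative fit. Over the pairs of the other pools the correlations ranged from -0.106 to 0.191. Alternatives were other filters, probe set rules, normalizations, spreads, adjustments and thresholds, a replicate block and leaving out each array. Leaving out both arrays that deviated most, and the block for CON and ASP+CGP alone, were added after seeing the data. Promoters were searched with Python 3.11.15.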

Additional observations from a re-analysis of the deposited data

Results flagged for a closer look

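The interaction of aspartame and antagonist, that is, the difference of ASP+CGP vs CGP and ASP vs CON, was called lower for 10 of the 27 other exocrine pancreas genes by limma, beside 1.35% of all genes. The interaction was -2.19 on the log2 scale for 2210010C04Rik, -1.51 for Sycn, -1.06 for Ctrl, -1.04 for Prss2, -1.02 for Pnliprp1, -0.91 for Reg1, -0.88 for Try5 and -0.71 for Rnase1. These 8 were named for their rise in ASP vs CON, which is part of the interaction, and none was called in ASP+CGP vs CGP. Pnliprp1 entered the fit only with its ASP arrays.

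For 4 of the chosen enzyme genes every ASP array lay above the CON mean and every ASP+CGP array below the CGP mean, a pattern shown by 8.06% of all genes and by 33.1% of those whose ASP arrays all lay above the CON mean. ASP+CGP minus CGP was -0.0425 for Ctrb1, -0.12 for Cpa1, -0.11 for Zg16 and -0.10 for Clps, none of which passed the test (adjusted p = 0.829, 0.416, 0.589 and 0.431 in limma), and the difference from ASP minus CON was not tested because the ASP values chose the genes. Zg16 entered the fit only with its ASP arrays.

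In 8 probe sets the annotation joins several symbols of which at least 1 is on the exocrine lists, and no gene was named from them. The 6 that it assigns jointly to pancreatic amylase genes were higher on all ASP arrays than on any other array, by 3.77, 3.50 and 3.47 relative to CON for their 3 distinct profiles, and 4 of the 6 repeat the same values. The first of these profiles rose from 4.73 in CON to 8.49 in ASP, with 4.66 in CGP and 4.67 in ASP+CGP, whereas Amy1 had -0.08. Of the 3 profiles, 2 lay under a signal of 6 on every array outside ASP, and against 6 their ASP levels were 2.49 and 3.42 higher in place of 3.77 and 3.50. Of 2 probe sets joined over trypsinogen genes 1 was higher on all ASP arrays, by 0.49. These values lay outside the tests.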

How the results depend on the processing

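The count of 0 enzyme genes called in CGP vs CON and in ASP+CGP vs CGP held under every alternative run. In ASP+CGP vs CON it was 0 except without the third CON array, where Cela3b made it 1, so leaving out single arrays gave 0 to 1. With the replicate block, over all pools or over CON and ASP+CGP alone, it stayed at 0, and the block changed no call of these genes. For the other exocrine genes the block gave 11 in ASP vs CON and 10 in ASP vs ASP+CGP. The other exocrine genes upregulated in ASP vs CON numbered 11, and 6 with a signal of at least 6 on all arrays, 5 with a mean signal of at least 7 and 3 at a 2-fold threshold; the counts for ASP vs ASP+CGP were 9, and 5, 4 and 3 in the same order. These settings test fewer genes or ask for a larger change. The median of ASP minus CON over the enzyme genes, 1.91, was 1.66 with a signal of at least 6 on all arrays, which removes Cpb1 and Zg16, and 1.74 to 1.93 without single arrays. Without an ASP array Zg16 also fails the filter, and over the same 8 genes the range is 1.84 to 1.98. Signals near the background limit Cpb1 and Zg16.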
